A study of Mus musculus with 2 samples.

Results

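The collagen genes of the mouse retina were compared on 2 one-colour Agilent arrays, 1 of wild-type (WT) retina and 1 of retina labelled Mef2d KO, both taken at postnatal day 14. Members were the non-control probes whose RefSeq accession belongs to a gene named Col, a number, a, a number. They were 62 of 55669 probes, for 43 of the 20659 genes matched and of the 44 collagen genes of the annotation. Col12a1 had no matched probe, and Emid2, an older name, was counted as Col26a1. Mef2d is a MEF2-family transcription factor, and the comparison asks what its loss changes in retinal expression. The sources used here do not give how the Mef2d allele was made, the strain, or the number and sex of the animals behind each RNA. Since each group is a single array, differences below have no replicate check and no test was possible.

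Collagens are trimers of chains that wind into a triple helix. The fibrillar types build fibrils, type IV forms the sheet of basement membranes, types VIII and X form networks, and the transmembrane types sit in the cell surface. In the eye, type IV collagen lies in the inner limiting membrane, Bruch's membrane, the walls of retinal vessels and the lens capsule, and types II, V, IX and XI form the fibrils of the vitreous. Chains are hydroxylated and folded in the endoplasmic reticulum, trimmed outside the cell and cross-linked by lysyl oxidases.

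Levels are log2 of the scanner's processed signal minus that array's 75th percentile. A difference is the level on the array labelled Mef2d KO (below, the KO-labelled array) minus that on the WT array, with the scanner software's error after ±, which leaves out variation between animals. Levels of different probes cannot be set against each other. A gene was called read where its brightest probe was well above background, by the scanner's flag, on both arrays. This flag was set for 75.5% of WT and 69.6% of KO-labelled spots. Over all genes, 911 were read in WT only and 137 on the KO-labelled array only. The 2 Mef2d probes were not lower on the KO-labelled array (0.43 ± 0.20 and 0.14 ± 0.21), and their place relative to the deletion is not known here, so directions follow the label only. For the 2 probes of Xist, the RNA of the inactive X chromosome, the KO-labelled array was higher by bounds of 51.7-fold and 26.4-fold. The Y-linked genes Eif2s3y (-0.36), Ddx3y (-0.46), Uty (-0.42 and -0.43) and Kdm5d (-0.76) were read on both arrays and lower on the KO-labelled one, so sex composition and genotype cannot be told apart. Among the 10 spiked-in control RNAs, those above a WT level of -1 differed by -0.016 to 0.022. The one at -1.80 differed by -0.031, the one at -2.84 by -0.11 and the one at -4.20 by -0.74. The 2 dimmest, at -5.38 and -6.05, differed by -1.81 and -1.21, with no spot well above background on the KO-labelled array. Rod markers (7 of 7, with Nrl at 0.020) and cone markers (5 of 5, with Gnat2 at -0.13) were read on both arrays.

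Of the 43 collagen genes, 39 were read on both arrays. Among these, 5 were at least 2-fold higher on the KO-labelled array (12.8%), against 0.618% of all 16185 genes so read, and 2 were at least 2-fold lower (5.13%), against 1.74%. The higher genes were Col26a1, Col16a1, Col27a1, Col17a1 and Col5a3, which belong to 4 classes. The lower genes were Col14a1 and Col4a3. The other 32 were within 2-fold, and the collagen median was 0.011, beside -0.0060 over all genes.

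The 5 higher genes lay above a mean level of -3 and the 2 lower genes below it. Above a mean level of -3 lay 31 collagen genes, of which 5 were 2-fold higher and 0 lower, where the shares of all genes were 0.587% and 0.892%. At or below -3 lay 8, of which 0 were 2-fold higher and 2 lower, where the shares of all genes were 0.75% and 5.35%. By 2 scanner errors, 5 collagen genes were higher (all genes 4.28%) and 7 lower (all genes 7.64%). The 7 were Col4a1, Col4a2, Col4a3, Col4a4, Col6a3, Col6a4 and Col14a1. The yardstick is unlike for Col4a1, whose error over 10 spots was 0.065, where that of Col4a2 with 1 spot was 0.20. With median scaling Col4a1 differed by -0.099, within 2 of its errors. At 1.5-fold, 5 were higher (all genes 2.08%) and 6 lower (all genes 5.44%).

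**Figure D1:**
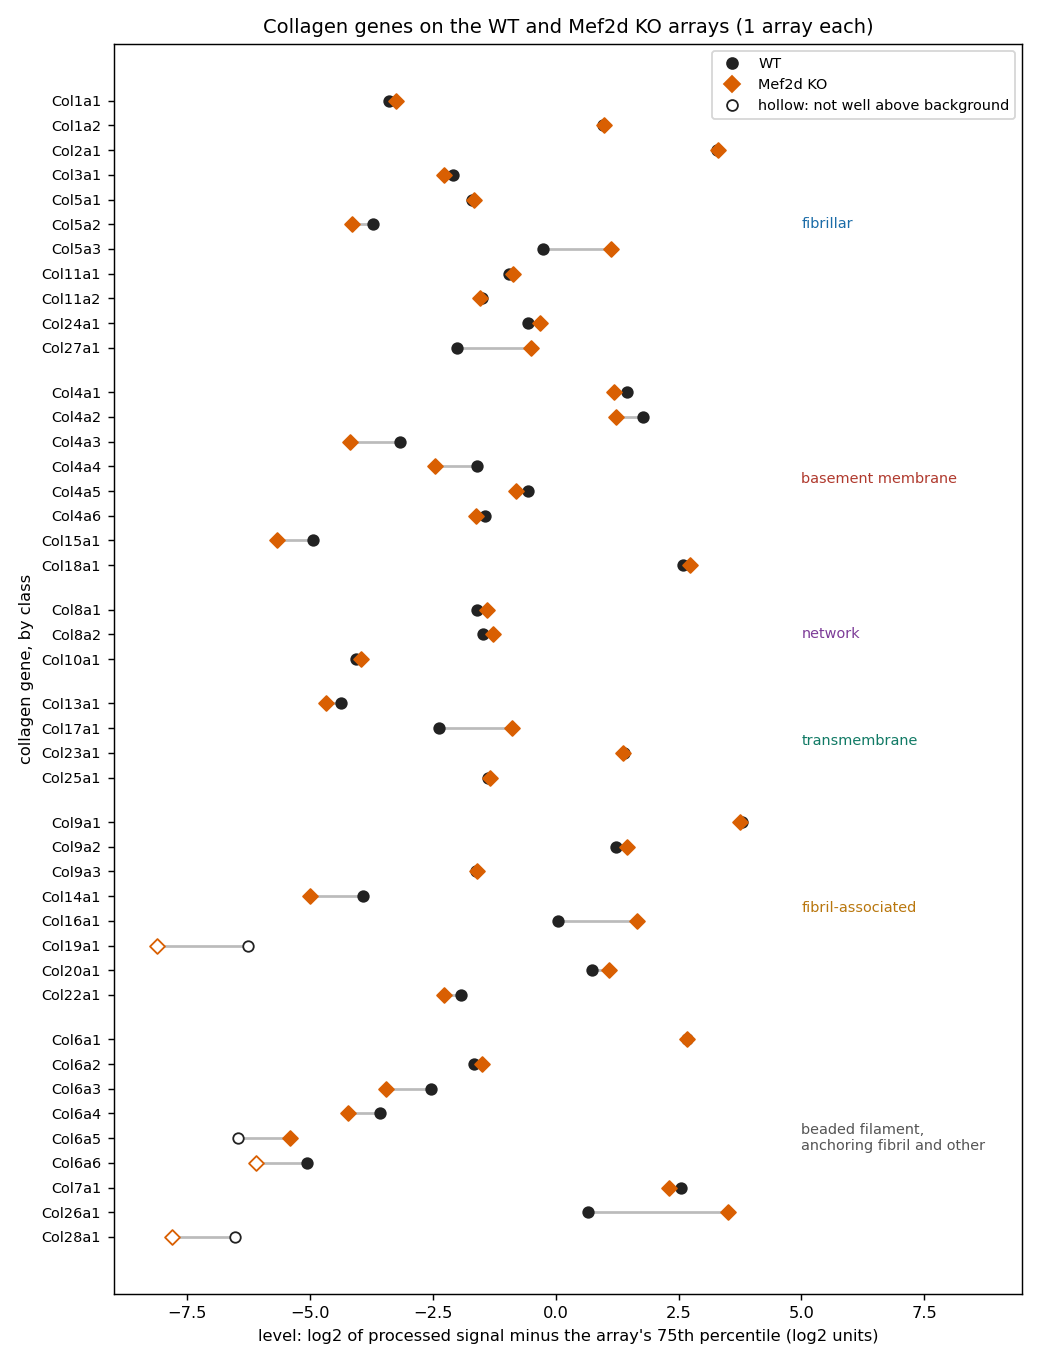
Level of each of the 43 collagen genes on WT (black circles) and KO-labelled arrays (orange diamonds), by class, in log2 units relative to each array's 75th percentile. Each symbol is 1 array, hollow symbols are not well above background, and levels compare only within a gene. The longest bars to the right are those of Col26a1, Col16a1, Col27a1, Col17a1 and Col5a3.

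Col26a1 had the widest gap of the 39 genes. It encodes a secreted collagen that carries an EMI domain beside its collagenous stretches. Its single probe gave a processed signal of 1270 on the WT array and 9772 on the KO-labelled array, levels of 0.65 and 3.51. This was 7.24-fold higher (2.86 ± 0.20), the positive difference of rank 5 among the 16185 genes.

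Col16a1 encodes a fibril-associated collagen that connects cells and matrix. Its brightest probe stood at 0.040 in WT and 1.66 on the KO-labelled array, 3.07-fold higher (1.62 ± 0.20). A second probe went from -2.92 to -1.16 (1.76 ± 0.21). The third was dim, at -5.45 and -5.32, and differed by 0.13 ± 0.40. So 2 of its 3 probes passed 2-fold, and the mean over the 3 was 1.17.

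Among the 11 fibrillar genes, 2 were at least 2-fold higher and 9 stayed within 2-fold, with a median of 0.047. Col27a1 encodes a fibrillar chain of developing cartilage. It went from -2.01 to -0.51, 2.82-fold higher (1.496 ± 0.21). Col5a3, the gene of a type V chain that helps set fibril diameter, went from -0.26 to 1.13, 2.62-fold higher (1.39 ± 0.20). The genes of the chains that share a trimer with it stayed within 2-fold. Col5a1 stood at -1.71 and -1.66 (0.047 ± 0.21), and the dim Col5a2 at -3.73 and -4.15 (-0.42 ± 0.24).

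The genes of the major fibrils were close between the arrays. Col2a1, the main vitreous collagen, stood at 3.28 in WT and 3.30 on the KO-labelled array (0.026 ± 0.20). Col1a2, a chain of type I collagen of sclera and stroma, stood at 0.95 and 0.99 (0.034 ± 0.20), and its trimer partner Col1a1 at -3.40 and -3.25 (0.14 ± 0.22). The type III gene Col3a1, of vessels and loose connective tissue, differed by -0.18 ± 0.21. The type XI genes Col11a1 and Col11a2 differed by 0.068 and -0.041, and Col24a1, a fibrillar gene of developing bone and cornea, by 0.24 ± 0.20. None of these 7 differed by as much as 2 scanner errors.

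Of the 4 transmembrane genes, 1 was 2-fold apart, and the class median was 0.015. Col17a1 encodes the collagen of hemidesmosomes, which anchor epithelia to their basement membrane. Its single probe went from -2.37 to -0.90, 2.77-fold higher (1.47 ± 0.21). Col23a1 stood at 1.38 and 1.37 (-0.0068 ± 0.20), and its other probes differed by -0.097 and -3.5e-05. Col25a1, a neuronal transmembrane collagen, stood at -1.37 and -1.34 (0.037 ± 0.21). Its other 2 probes read on both arrays differed by 0.27 ± 0.24 and -0.41 ± 0.24, with opposite signs. Col13a1, of neuromuscular junctions, was dim, at -4.38 and -4.67 (-0.29 ± 0.29).

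**Figure D2:**
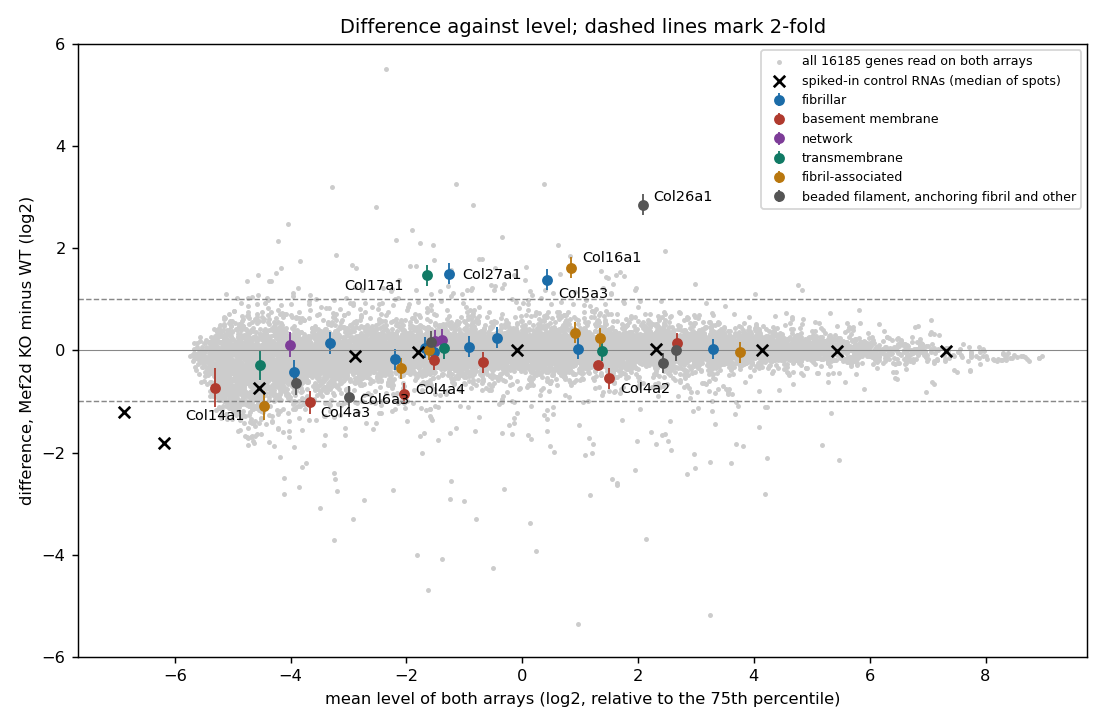
Difference (KO-labelled minus WT, log2) against the mean level of both arrays for the 39 collagen genes read on both, coloured by class with the scanner error as bar, over all 16185 genes in grey. Crosses are the 10 spiked-in control RNAs, the dimmest of which lie at the lower left. The 5 higher collagens lie above the upper 2-fold line at levels where the controls stay near 0.

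The basement membrane class had the lowest median, -0.41 over 8 genes. Of the 8, 7 had a negative difference, against 51.2% of all genes, and 1 was at least 2-fold lower. The 7 were Col15a1 and all 6 type IV genes. Col15a1 and Col4a3 lay at or below a mean level of -3, where 2230 of all 3067 genes were negative. The 6 type IV genes form 3 pairs of genomic neighbours, and the pairs differed by unlike amounts. The class median was -0.24 with median scaling and -0.25 with quantile normalization, and 7 of 8 were negative in both. Of all 16185 genes, 3654 were negative with median scaling and 7223 with quantile normalization.

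Col4a1 and Col4a2 encode the chains found in nearly all basement membranes. Col4a1 had 10 spots on each array, between 1.40 and 1.51 in WT and between 1.11 and 1.23 on the KO-labelled array. With the scaling used for these levels, the spots of the arrays did not overlap, but with median scaling their ranges did. How often the spots of other repeated probes stay apart was not counted. The mean difference of the Col4a1 spots was -0.28 ± 0.041 (SD over 10 spots of 1 pair of hybridisations, not animals). Col4a2 went from 1.77 to 1.22 (-0.55 ± 0.20). With median scaling the 2 genes differed by -0.099 and -0.37.

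Col4a3 and Col4a4 encode chains of specialised basement membranes, and mutations in them cause Alport syndrome. Col4a3 was dim and went from -3.16 to -4.18, 2.03-fold lower (-1.02 ± 0.23). Col4a4 went from -1.61 to -2.46, 1.80-fold lower (-0.85 ± 0.21), and a dimmer probe from -3.69 to -4.71 (-1.03 ± 0.27). Col4a3 came within 2-fold with median scaling (-0.84), quantile normalization (-0.80), cyclic loess (-0.75) and normexp background (-0.53). The normexp setting adds an offset of 50 to each signal. Here and below it therefore shrinks the differences of dim genes by construction. The X-linked pair differed least: Col4a5 went from -0.57 to -0.80 (-0.24 ± 0.20) and Col4a6 from -1.43 to -1.62 (-0.18 ± 0.21). The part of sex composition, seen in Xist above, was not tested for this pair.

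The remaining basement membrane genes gave opposite signs. Col18a1, whose product is cleaved to endostatin, stood at 2.59 and 2.74 (0.14 ± 0.20), with 0.13 ± 0.20 on its second probe. Col15a1 was near background, at -4.95 and -5.68 (-0.73 ± 0.38).

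Marker lists of lens and vessel cells had negative medians too, the endothelial one not with median scaling. Negative medians were not particular to them. Those of rods (-0.041), cones (-0.13), Mueller glia (-0.14), astrocytes (-0.13), cornea and conjunctiva (-0.48) and extraocular muscle (-0.78) were negative as well. The fibroblast (0.12), pigment epithelium (0.13) and leukocyte (0.52) medians were positive. Of 9 lens markers, 8 were read on both arrays, with a median of -1.71, and their summed linear level was 78.4 in WT and 24.1 on the KO-labelled array. Such sums are weighted towards the brightest probes of a list and serve only to compare the arrays. At least 2-fold lower were 5 lens markers, among them the water channel gene Mip (-4.09) and the crystallin genes Crybb2 (-2.64), Cryba1 (-2.30) and Crygs (-2.10), with Bfsp2 at -1.31. Lgsn was higher (1.62), and Lim2, read in WT only, had a bound of 6.60-fold lower. Of 9 endothelial markers, 8 were negative, or 3 with median scaling (median -0.17, or 0.013; Kdr at -0.040), with a summed level of 25.8 and 24.6. Of 9 pericyte and smooth muscle markers, 9 were negative, or 7 with median scaling (median -0.25, or -0.071; Rgs5 at -0.25), with a summed level of 7.21 and 5.97. Of all 16185 genes, 51.2% were negative. With median scaling 3654 of them were negative, and the median of all genes was 0.17. The part of the lens and vessel cells in the type IV values was not tested. In whole tissue, fewer cells of a type and less RNA per cell cannot be told apart.

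**Figure D3:**
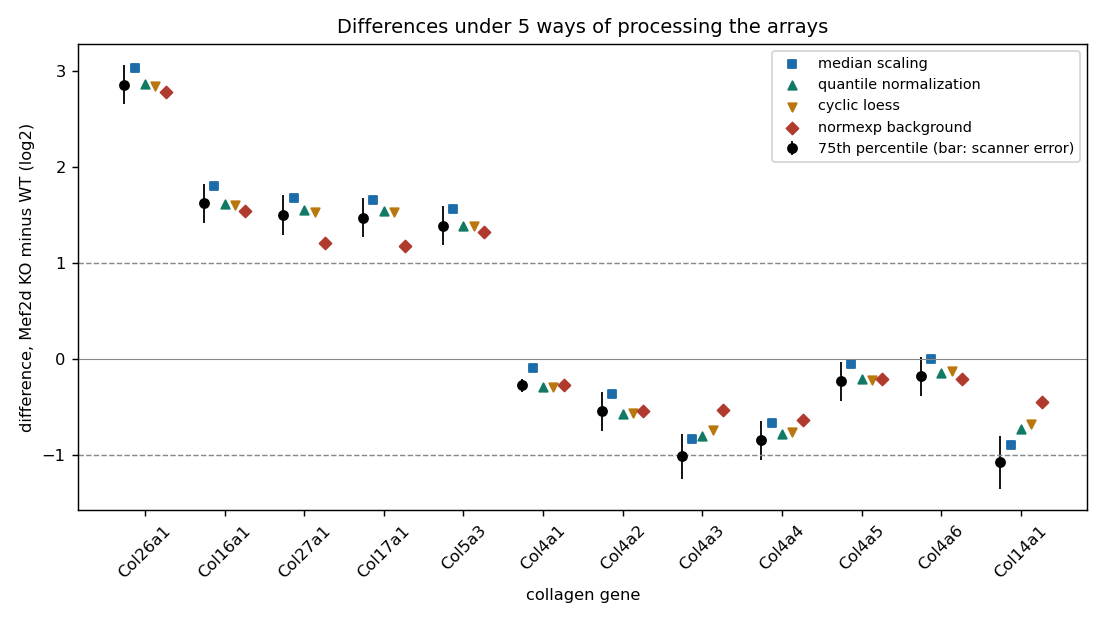
Differences (KO-labelled minus WT, log2) of the 5 higher collagens, the 6 type IV genes and Col14a1 under 5 ways of processing the arrays, with the scanner error on the 75th percentile values. The 5 higher genes stay above the 2-fold line in all 5, while Col4a3 and Col14a1 pass 2-fold only with the 75th percentile.

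The 3 network genes stayed close. Col8a1 and Col8a2 encode the type VIII chains of endothelial and corneal membranes. Col8a1 stood at -1.60 and -1.41 (0.19 ± 0.21) and Col8a2 at -1.49 and -1.28 (0.21 ± 0.21), with -0.16 ± 0.37 on a dimmer Col8a2 probe. The hypertrophic cartilage gene Col10a1 was dim, at -4.07 and -3.96 (0.11 ± 0.25), and differed by -0.070 with normexp background.

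Of the other fibril-associated genes, Col14a1, whose product binds the surface of type I fibrils, passed 2-fold. It was dim and went from -3.92 to -5.00, 2.11-fold lower (-1.08 ± 0.28). Its second probe was not well above background on either array. It came within 2-fold under median scaling (-0.90), cyclic loess (-0.68), quantile normalization (-0.73) and normexp correction (-0.45). The type IX genes, partners of type II in the vitreous, were close on their brightest probes. Col9a1 stood at 3.78 and 3.74 (-0.039 ± 0.20), Col9a2 at 1.22 and 1.45 (0.24 ± 0.20) and Col9a3 at -1.62 and -1.61 (0.011 ± 0.21). A dim second Col9a1 probe went from -4.09 to -5.00 (-0.91 ± 0.29), unlike the bright one. Col20a1 stood at 0.73 and 1.08 (0.35 ± 0.20), with 0.41 on its second probe, and Col22a1, of tissue junctions, at -1.92 and -2.27 (-0.35 ± 0.21).

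Type VI collagen forms beaded filaments around cells, and the genes of its chains did not differ alike. Col6a1 stood at 2.66 on both arrays (0.00093 ± 0.20), and Col6a2 at -1.67 and -1.499 (0.17 ± 0.21). Col6a3, the gene of the largest chain, went from -2.54 to -3.45, 1.88-fold lower (-0.91 ± 0.22). The alternative chain gene Col6a4 was dim, at -3.59 and -4.22 (-0.64 ± 0.24). Its neighbours were read on 1 array each, Col6a6 in WT (bound of 1.74-fold lower) and Col6a5 on the KO-labelled array (bound of 1.27-fold higher). These bounds hold for the 75th percentile scaling only. Under normexp correction Col6a6 differed by -0.35 and Col6a5 by 0.16, and with quantile normalization Col6a6 differed by -0.44. Col7a1, the gene of anchoring fibrils, stood at 2.55 and 2.30 (-0.25 ± 0.20). Col19a1 and Col28a1 were not well above background on either array.

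Probes of 1 gene were close to each other where they were bright. Of the 8 genes with more than 1 probe read on both arrays, 4 (Col18a1, Col20a1, Col23a1 and Col4a4) had differences within 0.25 of each other. In 2, Col25a1 and Col8a2, the signs differed. The others were Col16a1 and Col9a1, each with a dim probe apart from a bright one.

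**Figure D4:**
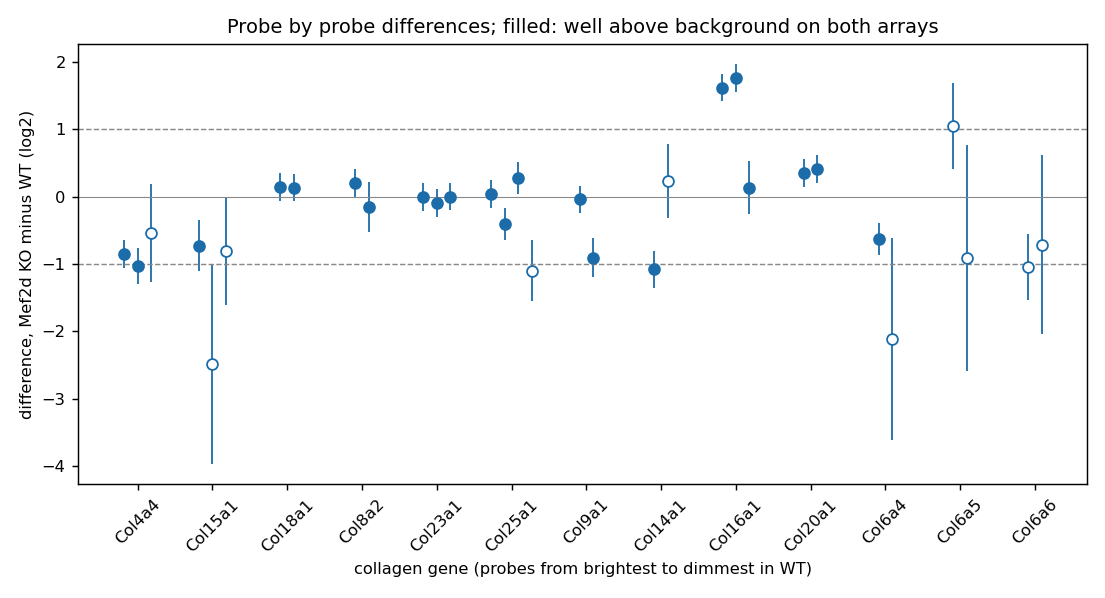
Differences (KO-labelled minus WT, log2) of each probe of the 13 collagen genes with more than 1 probe, brightest to dimmest in WT from left to right, with the scanner error as bar. Filled symbols are well above background on both arrays. The first 2 Col16a1 probes lie above 2-fold and the dim one does not, while the probes of Col18a1, Col20a1 and Col23a1 lie close together.

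Genes that fold, trim, bind and cleave collagen were taken from 6 lists of 90 genes. Both arrays read 76 of them, of which 2 were at least 2-fold higher (2.63%, against 0.618% of all genes) and 1 lower (1.32%, against 1.74%), with a median of -0.054. All 3 belonged to the 12 read genes of procollagen processing and cross-linking. Pcolce, whose product enhances removal of the procollagen C-propeptide, went from 0.92 to 2.22, 2.47-fold higher (1.31 ± 0.20). Loxl4, a lysyl oxidase gene, went from -2.13 to -1.02, 2.16-fold higher (1.11 ± 0.21), or 0.90 under normexp correction. Adamts3, the gene of a procollagen N-proteinase, went from -2.86 to -5.37, 5.68-fold lower (-2.51 ± 0.32), or -1.22 under normexp correction. Bmp1, the gene of the C-proteinase, differed by 0.11, and Pxdn, whose product cross-links type IV collagen, by -0.083. Lox and Tll2 were not well above background on either array.

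The folding and modification genes were close between the arrays, all 18 within 2-fold, from -0.35 to 0.28. The cyclophilin gene Ppib, which marks the upper end, stood at 3.35 and 3.64, and the collagen export gene Mia3 differed by 0.021. The prolyl hydroxylase subunit gene P4hb differed by 0.13 and the collagen chaperone gene Serpinh1 by -0.20. The 15 other basement membrane genes stayed within 2-fold too, with a median of -0.017. Within that list Nid1, the nidogen that links laminin to type IV collagen, went from 1.17 to 0.30 (-0.87 ± 0.20), and Hspg2, the perlecan gene, from -0.15 to -0.93 (-0.78 ± 0.20). The heparan sulfate proteoglycan gene Agrn (0.12) and the laminin gene Lamb1 (0.10), the brightest members of this list, were closer to 0. Of the other laminin genes, Lama2 was lowest (-0.49 ± 0.20) and the dim Lamb3 highest (0.22 ± 0.35). By 2 scanner errors, 3 genes of the list were lower (Nid1, Hspg2 and Lama2, all genes 7.64%) and 0 higher (all genes 4.28%).

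Matrix binders, receptors and proteases read on both arrays stayed within 2-fold. The 15 fibril-binding and matricellular genes ranged from -0.33 to 0.31, with Sparc at -0.087 and Sparcl1 at -0.29. Of 7 collagen receptor genes, Adgrg1, an adhesion receptor for type III collagen, went from -1.18 to -0.32 (0.85 ± 0.20, or 1.03 with median scaling). The kinase receptor genes Ddr2 and Ddr1 differed by 0.45 and -0.057, and the integrin gene Itgb1 by 0.10. The protease and inhibitor list had 9 read genes from -0.33 to 0.38, among them the inhibitor genes Timp2 (-0.0052) and Timp3 (0.078). The protease gene Mmp1b was read on the KO-labelled array only, with a bound of 2.73-fold higher, but differed by 0.46 under normexp correction. Mmp16 was read on that array only too (bound of 1.37-fold higher, or -0.00088 under normexp correction). Read in WT only were the protease genes Mmp13 (bound of 2.17-fold lower) and Mmp8 (1.52-fold lower). So were the receptor genes Gp6 (2.45-fold lower) and Itga2 (1.91-fold lower). Under normexp correction Gp6 differed by -0.44 and Mmp13 by -0.36.

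**Figure D5:**
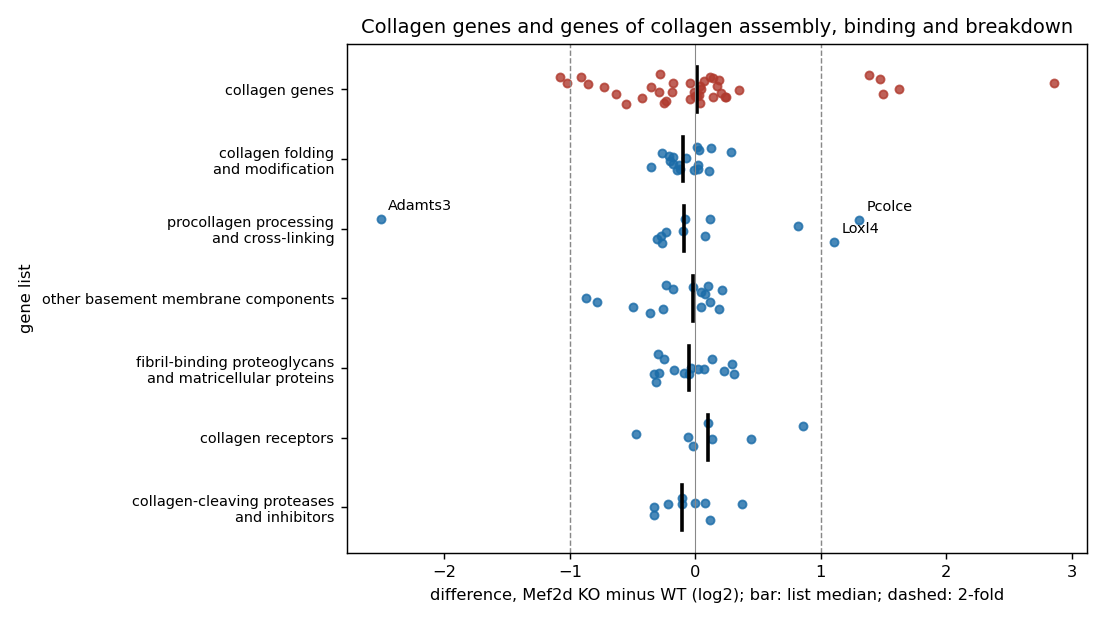
Differences (KO-labelled minus WT, log2) of the 39 collagen genes and of 76 genes in 6 lists of collagen assembly, binding and breakdown, 1 point per gene, with the list median as a bar and 2-fold as dashed lines. Apart from collagens, the points past 2-fold are Pcolce and Loxl4 to the right and Adamts3 to the left.

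Markers of other tissue were set beside the 5 higher collagens. Of 9 fibroblast, sclera and choroid markers, 6 were read on both arrays with a median of 0.12 and a summed level of 1.55 in WT and 1.65 on the KO-labelled array. The median was 0.33 with quantile normalization and 0.34 with cyclic loess. Fbln1 (0.75 ± 0.21) and Mfap5 (0.59 ± 0.22) were higher by more than 2 scanner errors, Pi16 differed by 0.29, Dcn by -0.051, Prrx1 by -0.18 and Pdgfra, the brightest, by -0.23. Lum, Dpt and Twist2 were not well above background on either array. Of 6 cornea and conjunctiva markers, Krt12 and Kera were not well above background on either array, and the 4 read summed to 3.86 and 2.73, of which Aldh3a1 was the brightest (-0.52, or -0.16 as the mean over its probes). The keratin genes Krt14 and Krt13 differed by -0.60 and -0.44, and Krt5 by 0.44 ± 0.25. The 7 read pigment epithelium markers had a median of 0.13 and summed to 37.9 and 41.8, with Dct at 0.13. The 6 read leukocyte markers had a median of 0.52 and summed to 4.04 and 6.20, with the invariant chain gene Cd74 at 1.77, Ctss at 0.55, Aif1 at 0.54 and Cd52 at 0.50. The pan-leukocyte gene Ptprc (-0.20) and the B cell gene Cd79a (-0.73) were negative, and the T cell gene Cd3g was read in WT only (bound of 1.31-fold lower). Of 5 extraocular muscle markers, Acta1 (-0.68) and Tnnt3 (-0.89) were read on both. Mueller glia markers summed to 106 and 95.1, with Glul at -0.17, and retinal astrocyte markers to 4.54 and 4.76. Of the 4 astrocyte markers, 3 were negative, with a median of -0.13: Pax2 at -0.77 ± 0.30, Pdgfra at -0.23 and Gfap at -0.036, beside S100b, the brightest, at 0.17. The part of these cells in the 5 higher collagens was not tested.

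The 5 higher genes lie on chromosome 4 (Col16a1 and Col27a1), 5 (Col26a1), 9 (Col5a3) and 19 (Col17a1). Of the 20 protein-coding genes placed first and second on either side of them, 14 were read on both arrays, and 1 of these was 2-fold apart, against 2.35% of all genes. It was Hcrtr1, an orexin receptor gene second after Col16a1, which went from -0.086 to 1.40 (1.49 ± 0.20). Pef1, which lies between them, differed by 0.022. Next to Col26a1, Ift22 differed by 0.41, next to Col5a3, Rdh8 differed by 0.38, and next to Col17a1, Sfr1 differed by 0.050. Directly beside Col27a1, Kif12 went from -3.10 to -3.97 (-0.87 ± 0.22), and the other flanking genes of Col27a1, Ambp, Orm1 and Orm3, were read in WT only. So were 911 of all genes, against 137 read on the KO-labelled array only.

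Promoter sequence is shown for the higher genes because Mef2d binds DNA. RefSeq windows of GRCm38.p6, from 250 bases before to 50 after the start, were held for 35 of the collagen genes and matched no Col26a1 entry. The 150 bases before the start of the other 4 higher genes are printed 5′ to 3′ on the gene's strand. Capitals mark the GC box GGGCGG, the CCAAT box and the TATA box TATAAA on either strand.
Col16a1 (chr4:130047690-130047839, + strand): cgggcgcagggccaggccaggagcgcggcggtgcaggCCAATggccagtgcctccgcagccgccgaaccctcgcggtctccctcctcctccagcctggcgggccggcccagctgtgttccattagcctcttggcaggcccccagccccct
Col27a1 (chr4:63215262-63215411, + strand): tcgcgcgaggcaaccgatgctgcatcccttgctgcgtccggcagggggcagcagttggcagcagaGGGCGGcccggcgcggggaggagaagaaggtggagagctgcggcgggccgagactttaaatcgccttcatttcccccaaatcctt
Col17a1 (chr19:47692043-47692192, - strand): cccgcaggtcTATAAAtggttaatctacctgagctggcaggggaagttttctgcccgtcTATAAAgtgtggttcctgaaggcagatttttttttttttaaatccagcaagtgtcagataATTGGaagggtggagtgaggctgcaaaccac
Col5a3 (chr9:20815068-20815217, - strand): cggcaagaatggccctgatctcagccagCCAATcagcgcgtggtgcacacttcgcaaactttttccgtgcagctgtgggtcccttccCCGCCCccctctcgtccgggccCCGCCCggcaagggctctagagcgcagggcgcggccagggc

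The 4 promoters were unlike. The printed stretch of Col17a1 held 2 TATAAA matches, in a 300-base window with 46.3% G and C, while the windows of Col27a1, Col5a3 and Col16a1 held 61.7%, 63.3% and 74.3%. The MEF2 consensus, searched on both strands and able to overlap a TATA box, was found in none of the 4 windows. It was found in 1 of 38 collagen windows (2.63%), that of Col13a1, beside 3.19% of all promoters. TAATCC, a core bound by the photoreceptor factor CRX, was found in 0 of 38, beside 7.06% of all promoters. GGGCGG was found in 23 of 38 (60.5%), beside 35.7% of all promoters. CCAAT was found in 13 (34.2%), beside 37.4%, and TATAAA in 5 (13.2%), beside 13.6%. The windows are not independent: those of Col4a1 and Col4a2, which start head to head on opposite strands, share 78 of their 300 bases and both hold GGGCGG. A match is a match of letters, not a bound site, and a window without one says only that these letters are not in it.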

How the data were processed

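Per the labels' protocols, retinal RNA was amplified and Cy3-labelled for 1-colour Agilent arrays. Per the file headers, the authors' deposited intensity values came from Agilent Feature Extraction 10.10.1.1, with background subtraction and spatial detrending. The deposited series table holds these intensity values times a constant for each array (1.88 and 1.76; column medians 155.1 and 136.6), linear and not centred, and served as an alternative.

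Control spots were dropped, as were spots with an outlier flag (106 and 126), which cost 12 probes. Signals were scaled to each array's 75th percentile (807 and 858 over 59305 probe spots) on a log2 scale, and spots of 1 probe were averaged. The files hold no gene names: 27231 probes (48.9%) were named by matching unversioned RefSeq accessions to GRCm38.p6, and the other 28438, which may hold further collagen probes, entered nothing. The design build is mm9, so the annotation gave names, chromosomes and gene order only. Each gene's value is that of its brightest probe by mean level. A bound sets the bright array's value against the higher of the dim probe's value and the lowest level well above background. Precision is limited by the number of arrays.

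The members, the lists and the naming rule were chosen with earlier results of these data known. The rule names every collagen gene, of each partner list the 2 brightest members and those 2-fold apart, and of each marker list the brightest and those 2-fold apart. Nid1, Hspg2, Lama2, Lamb3, P4hb, Serpinh1, Adgrg1, Ddr2, Gp6, Itga2, Mmp1b, Mmp8, Mmp13, Mmp16, Lox and Tll2 were named after their values were seen. So were marker genes that are neither brightest nor 2-fold apart, the genes at background and the flanking genes. Alternatives were median scaling, the percentile over probes read on both, quantile normalization, cyclic loess, normexp background (offset 50, on median signals since the files hold no mean spot signal), the series table, the mean over probes, other filters and 1.5-fold. The scripts were tested on simulated data. Versions were Python 3.11.15 (pandas 2.3.3, numpy 2.4.6, matplotlib 3.10.9), R 4.3.3 and limma 3.58.1.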

Additional observations from a re-analysis of the deposited data

How the results depend on the processing

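The count of 5 collagen genes at least 2-fold higher was 5 under each alternative except without the background filter, where it was 6. The 5 genes differed by 2.78 to 3.03 (Col26a1), 1.17 to 1.80 (Col16a1), 1.21 to 1.67 (Col27a1), 1.17 to 1.65 (Col17a1) and 1.32 to 1.57 (Col5a3). The count of 2 lower genes became 0 with median scaling, quantile normalization, cyclic loess, normexp background and a mean level above -3, 5 without the background filter and 6 at 1.5-fold. The collagen median ranged from -0.036 with normexp background to 0.19 with median scaling, a setting that moved the median of all genes to 0.17. Of the partner genes, the 2 higher became 1 with normexp background and 3 with median scaling, cyclic loess and without the background filter, and the 1 lower became 7 without the background filter and 0 at a mean level above -3. None of the 7 collagen genes past 2-fold changed sign under the alternatives run. No paired analysis was possible because each group holds 1 array, and for the same reason no replicate could be left out. Signal over background limits Col15a1, Col14a1, Col4a3, Col6a4 and Col13a1.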
